A study of Mus musculus with 6 samples.

Results

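The genes described here encode the pyruvate dehydrogenase complex, the branched-chain 2-oxoacid dehydrogenase complex and the enzymes that give both their lipoyl cofactor. They were picked out by symbol, with no threshold on a measured value but with earlier results of these data known, and comprise 10 of the 21899 genes listed for each sample: Pdha1, Pdhb, Dlat, Pdhx, Bckdha, Bckdhb, Dbt, Bckdk, Lias and Lipt1. Each symbol had 1 identifier, and all 10 were among the 12768 genes with enough counts to be tested.

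Induced regulatory T cells (iTregs, CD4+ T cells turned into FoxP3-expressing cells in culture) were profiled by bulk mRNA sequencing in 6 samples, 3 from iWT mice (WT) and 3 from Dlst-Treg iKO mice (KO). Spleen CD4+ T cells of both groups were held under Treg-polarising conditions for 2 days with 4-hydroxytamoxifen, a drug that switches on inducible forms of Cre recombinase. Cells of both groups that carried CD4, the FoxP3-GFP reporter and tdTomato-RFP were then sorted. The sources used here do not give the promoter that drives Cre, the deleted exons, or the strain, age and sex of the mice. Whether the samples are separate mice or cultures is not stated either, so p-values measure only the spread between these samples, which may be technical.

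Pyruvate dehydrogenase, branched-chain dehydrogenase and 2-oxoglutarate dehydrogenase, the complex that contains Dlst, are built on one plan. An E1 enzyme removes CO2 from a 2-oxoacid, an E2 core carries the remaining acyl group on a swinging lipoyl arm and passes it to coenzyme A, and the shared E3 enzyme Dld reoxidises the arm. Pyruvate dehydrogenase feeds glycolytic carbon into the TCA cycle, and the branched-chain complex commits leucine, isoleucine and valine to breakdown. The lipoyl group is made inside mitochondria by Lias and transferred to the E2 proteins by Lipt1. The comparison of KO with WT asks whether mRNA of these sister complexes and of the lipoylation enzymes differed where Dlst was targeted.

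Libraries held from 33590510 to 49772670 estimated counts. Dlst, which encodes the E2 subunit of 2-oxoglutarate dehydrogenase, stood in WT replicates 1 to 3 at 161, 149 and 149 CPM, the count relative to the library total after scaling, and in KO replicates 1 to 3 at 125, 129 and 129 CPM. The groups did not overlap, KO being lower, as in 10.9% of all tested genes. The Dlst log2 fold change, -0.26 with an SE of 0.05, missed the threshold of 0.05 (edgeR adjusted p = 0.0894). Most Dlst mRNA was still measured in KO. The T cell and Treg markers Cd3e, Cd3g, Cd4, Trac, Foxp3, Il2ra, Ikzf2 and Ctla4 were all detected, but their levels were not constant between the groups. Of these 8, Ikzf2, a transcription factor of Treg cells, fell (log2 fold change -0.57, edgeR adjusted p = 0.0366). In CPM 4 of the 8 had groups that did not overlap, against 22.8% of all tested genes. Ikzf2 and Cd4 were lower and Trac and Foxp3 higher in KO. For Trac this held in CPM only: in length-scaled values (TPM) its groups overlapped, with means of 904 in WT and 911 in KO. The 6 CD8 and NK cell markers summed to 50.2 to 88.4 CPM in WT and 90.8 to 109 CPM in KO. Cd8a and Cd8b1 were each higher in every KO sample, as were 11.9% of all tested genes (edgeR adjusted p = 0.294 and 0.185). For Klrd1 and Eomes of that list the groups overlapped, with log2 fold changes of -0.64 and 0.33 (edgeR adjusted p = 0.565 and 0.74). Klrb1c and Ncr1 were too low to be tested. The 8 neutrophil markers summed to 4.61 to 30.8 CPM in WT and 71.3 to 294 CPM in KO, and the 8 monocyte and macrophage markers to 20.2 to 30.7 CPM and 98.1 to 376 CPM. Both sums were highest in KO replicate 1, which was also the only sample with Y-linked mRNA at a substantial level (253 CPM over Ddx3y, Eif2s3y, Kdm5d and Uty, against 0.667 to 1.25 CPM in the other 5).

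No difference between KO and WT was detected for any of the 10 genes. At an adjusted p under 0.05 (edgeR's quasi-likelihood test, Benjamini-Hochberg adjustment over all tested genes) 0 of 10 were higher and 0 lower in KO, where 0.674% of all tested genes passed, 0.454% higher and 0.219% lower. At an unadjusted p under 0.05 the count was again 0 of 10, against 15.1% of all tested genes. By limma on log2(TPM + 1) it was 0 of 10 with 0.546% of all genes called, and on log2(TPM + 0.1) 0 of 10 with 0.592%. DESeq2 called 0 of the 10 and 3.84% of all its tested genes, a fit with a replicate block 0 and 1.39%, and a fit without replicate 1 of both groups 0 and 4.21%. The log2 fold changes of the 10 ran from -0.11 (Bckdhb) to 0.04 (Pdha1), with a median of -0.03 against -0.00 over all tested genes. In bulk samples a change in the amount of mRNA per cell and a change in the share of cells that carry it cannot be told apart. In the edgeR fit to counts the 95% interval lay between 0.8-fold and 1.25-fold of WT for 9 of the 10 genes, and for Bckdhb, the least abundant, it ran from 0.689-fold to 1.24-fold. In length-scaled values (TPM, tested by limma with a pseudocount of 0.1) the same held for 6 of the 10, and the lower bound was 0.696-fold for Bckdhb, 0.739-fold for Dbt, 0.759-fold for Pdhx and 0.799-fold for Lipt1.

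**Figure D1:**
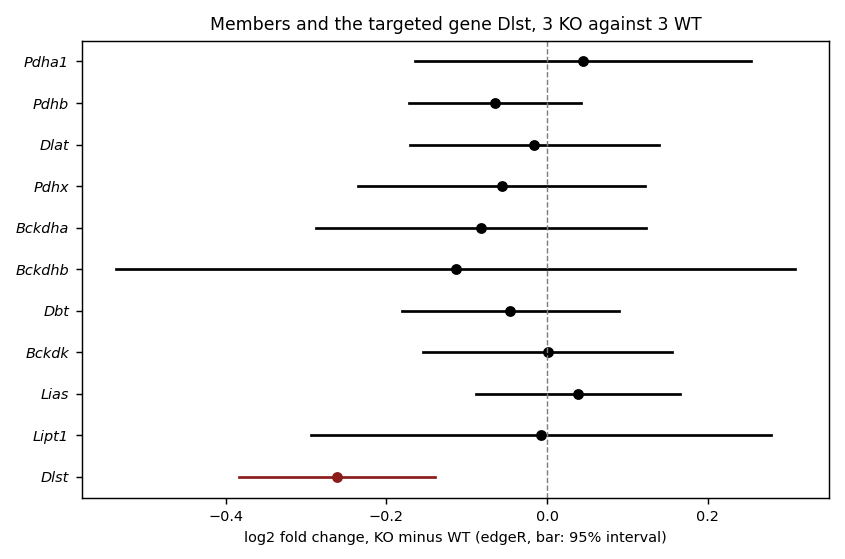
Log2 fold change of KO over WT (x axis) for the 10 genes and, in red, the targeted gene Dlst; points are edgeR estimates and bars 95% intervals, from 3 KO and 3 WT samples. The intervals of all 10 genes include 0, the widest being that of Bckdhb (-0.54 to 0.31), while that of Dlst runs from -0.38 to -0.14.

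The levels per gene length differed far more between genes than between samples. Levels between genes are given as TPM, in which counts are scaled by gene length and library total. Pdha1 had the highest mean, 155 ± 12.3 TPM (SD, n = 6, both groups together), and Bckdhb the lowest, 5.19 ± 0.80 TPM, a ratio of the means of 29.8. The order was Pdha1, Pdhb, Bckdk, Bckdha, Lias, Dlat, Pdhx, Dbt, Lipt1 and Bckdhb. The ranges over the 6 samples overlapped for the neighbours Bckdha and Lias, Dlat and Pdhx, Pdhx and Dbt, and Lipt1 and Bckdhb, and were separate for the other neighbouring pairs. The median over all tested genes was 19.4 TPM, so Dbt, Lipt1 and Bckdhb lay below the typical tested gene and the other 7 above it.

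**Figure D2:**
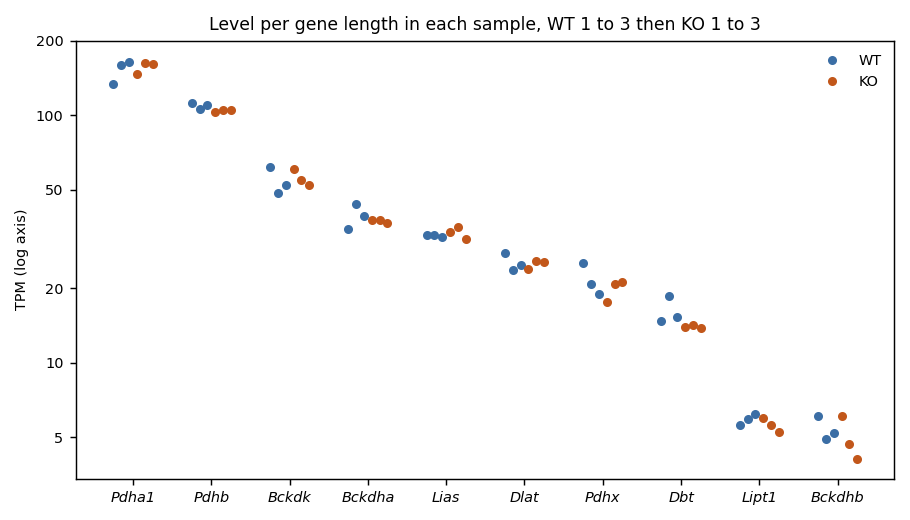
TPM (y axis, log scale) of the 10 genes, ordered by mean level; each point is 1 sample, WT in blue and KO in orange. The genes span from 4.09 TPM (Bckdhb, KO replicate 3) to 165 TPM (Pdha1, WT replicate 3), and within each gene the blue and orange points lie close together.

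The stretches before the start sites of the most and the least abundant gene are shown because they stand at the ends of this range. They are the 250 bases upstream of the RefSeq start (GRCm38.p6), read 5′ to 3′ on the gene's strand, with CCAAT boxes (CCAAT or, on the other strand, ATTGG) and GC boxes (GGGCGG or CCGCCC) in capitals. Of the 10 genes, 9 had an entry in the promoter table and Dbt was not among them. Pdha1 lies on the minus strand, at chrX:160138431-160138680, and Bckdhb on the plus strand, at chr9:83924887-83925136.
Pdha1: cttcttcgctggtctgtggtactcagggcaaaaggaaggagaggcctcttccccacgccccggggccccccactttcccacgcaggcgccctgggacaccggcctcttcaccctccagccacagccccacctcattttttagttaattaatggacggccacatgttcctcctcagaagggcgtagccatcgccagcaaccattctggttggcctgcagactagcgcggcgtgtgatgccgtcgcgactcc
Bckdhb: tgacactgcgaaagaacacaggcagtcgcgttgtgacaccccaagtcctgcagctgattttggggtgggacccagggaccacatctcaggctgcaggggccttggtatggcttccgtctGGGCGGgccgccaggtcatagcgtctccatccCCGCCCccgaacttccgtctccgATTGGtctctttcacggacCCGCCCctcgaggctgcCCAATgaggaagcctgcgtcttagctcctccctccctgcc
The Bckdhb stretch held 2 CCAAT boxes and 3 GC boxes, and the Pdha1 stretch held 0 of either. Among 27025 promoters of the same length, one for each gene of the table, 34.5% had a CCAAT box and 32.9% a GC box; among the 9 genes it was 3 and 4. The ERR site (TCAAGGTCA or TGACCTTGA), named for the oestrogen-related receptors, was found in 0 of the 9 and in 0.366% of all promoters. A match of letters is a description and not a measured binding site.

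Among the pyruvate dehydrogenase genes, the E1 subunits were the most abundant. Pdha1 encodes the catalytic E1 alpha subunit, whose phosphorylation switches the complex off. In replicate order it measured 217, 265 and 267 CPM in WT and 239, 268 and 266 CPM in KO. The groups overlapped: replicate 1 was the lowest sample of each, and the other 4 samples lay within a few CPM of each other. The WT mean was 249.6 ± 28.2 CPM and the KO mean 258 ± 16.2 CPM (SD, n = 3 each), and the log2 fold change was 0.04 (SE 0.09, edgeR adjusted p = 0.85). Without WT replicate 1 it turned to -0.05. Pdha1 (ENSMUSG00000031299) is X-linked, from 160122209 to 160138413 on the minus strand of chromosome X (GENCODE M21, GRCm38). The part of the difference in Y-linked mRNA in the Pdha1 values was not tested.

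Pdhb encodes the E1 beta subunit and was the 1 gene of the 10 whose groups did not overlap in CPM. It measured 97.1, 93.3 and 95.1 CPM in WT and 89.8, 91.5 and 91.7 CPM in KO. Each KO sample was below each WT sample, a pattern shown by 10.9% of all tested genes. The difference was small, with a WT mean of 95.2 ± 1.90 CPM and a KO mean of 91.0 ± 1.00 CPM (SD, n = 3 each), and did not pass (log2 fold change -0.07, SE 0.05, edgeR adjusted p = 0.547). Of the 10 genes it nevertheless had the smallest unadjusted p, 0.196, which ranked 4572 of 12768. The interval leaves room for a fall of Pdhb of at most 11.2% and a rise of at most 2.92%. Pdhb lies on the minus strand of chromosome 14 from 8165996 to 8173025.

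For the E2 core no difference was detected either. Dlat, the E2 acetyltransferase, which bears lipoyl arms, measured 63.9, 56.1 and 57.0 CPM in WT and 55.3, 60.1 and 59.7 CPM in KO. The highest Dlat sample was WT replicate 1 and the lowest KO replicate 1, and the other 4 lay between. Its log2 fold change was -0.02 (SE 0.07, adjusted p = 0.934), and its means were 59.0 ± 4.27 CPM (WT) and 58.3 ± 2.64 CPM (KO). Pdhx, the E3-binding protein that anchors Dld to the core, measured 23.7, 22.3 and 22.4 CPM in WT and 20.04, 23.7 and 22.1 CPM in KO. KO replicate 1 was the lowest Pdhx sample, KO replicate 2 was level with the highest WT sample, and the log2 fold change was -0.06 (SE 0.08, adjusted p = 0.771 by edgeR). The sign turned to 0.02 for Dlat and to 0.01 for Pdhx when KO replicate 1 was left out. Dlat lies on chromosome 9 from 50634633 to 50659780 and Pdhx on chromosome 2 from 103021075 to 103073513, both on the minus strand.

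Many genes outside these pathways were closer to Dlat in their pattern over the 6 samples than the other subunits were. It was compared with 9667 other tested genes whose log2 CPM averaged 2 or more. Symbols that start with Gm or end in Rik, and genes without a symbol, were left out. The nearest to Dlat by the root mean square difference of gene-centred log2 CPM over 6 samples were Naa10 (0.0117), an N-terminal acetyltransferase, Smco4 (0.0133) and Sf3a3 (0.0157), a splicing factor. Naa10 was also highest in WT replicate 1 (86.9 CPM) and lowest in KO replicate 1 (75.6 CPM). Pdhx was the 576th nearest (0.0525), Bckdk the 791st (0.0575) and Pdhb the 878th (0.0589), whereas Dlst was the 5672nd (0.128) and Pdha1 the 7116th (0.161).

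**Figure D3:**
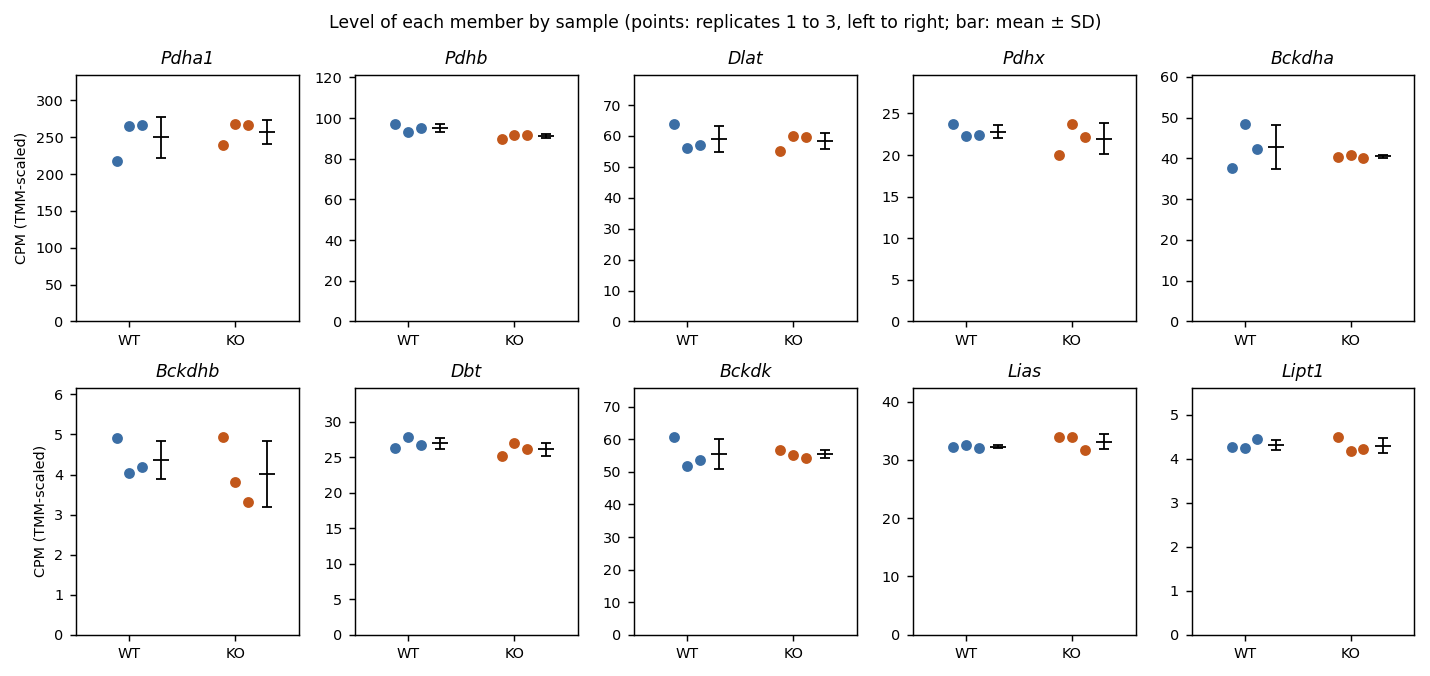
CPM (y axis, from 0) of each of the 10 genes in the 3 WT (blue) and 3 KO (orange) samples, replicates 1 to 3 from left to right, with mean ± SD beside them. The groups overlap in every panel except Pdhb, and replicate 1 is the lowest sample of both groups for Pdha1.

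In the branched-chain complex no gene passed, and the E1 subunits had the wider spread. Bckdha, the E1 alpha subunit, measured 37.6, 48.5 and 42.4 CPM in WT and 40.4, 40.9 and 40.1 CPM in KO. The 3 KO samples lay within 1 CPM of each other and inside the WT range, which was set by WT replicates 1 and 2. The log2 fold change was -0.08 (SE 0.09, adjusted p = 0.701 by edgeR), or 0.02 without WT replicate 2. Bckdhb, the E1 beta subunit, rested on the fewest counts, 127.71 to 246.74 per library, and measured 4.91, 4.03 and 4.18 CPM in WT and 4.93, 3.82 and 3.32 CPM in KO. Replicate 1 was the highest Bckdhb sample in both groups, the KO samples differed by up to 1.49-fold, and the log2 fold change of -0.11 (SE 0.18) was indistinguishable from 0 (adjusted p = 0.806 by edgeR). Bckdha lies on the minus strand of chromosome 7 from 25629946 to 25658981, and Bckdhb on chromosome 9, plus strand, from 83925145 to 84124240.

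Dbt, the E2 transacylase that bears the lipoyl arm of the branched-chain complex, measured 26.3, 27.8 and 26.8 CPM in WT and 25.2, 27.0 and 26.3 CPM in KO. The groups overlapped and the log2 fold change was -0.05 (SE 0.06, adjusted p = 0.748 by edgeR). Bckdk, the kinase that inactivates the complex by phosphorylating its E1 alpha subunit, measured 60.7, 52.0 and 53.6 CPM in WT and 56.8, 55.1 and 54.4 CPM in KO. The Bckdk mean was 55.4 ± 4.62 CPM for WT and 55.4 ± 1.23 CPM for KO (SD, n = 3 each), and the log2 fold change 0.00 (SE 0.07, edgeR adjusted p = 0.996). Dbt lies on chromosome 3 from 116513070 to 116549981 and Bckdk on chromosome 7 from 127904082 to 127910221, both on the plus strand. Bckdk had a called gene within 2 Mb: Itgax, an integrin of macrophages and dendritic cells, 0.219 Mb away, stood at 1.77 to 2.11 CPM in WT and 4.40 to 8.20 CPM in KO, and its log2 fold change was 1.596 (edgeR adjusted p = 0.0472). Itgax was highest in KO replicate 1, as were the neutrophil and monocyte marker sums, and their part in the result was not tested.

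For the lipoylation enzymes no difference was detected either. Lias, the iron-sulphur enzyme that inserts the sulphur atoms of lipoate, measured 32.2, 32.6 and 32.0 CPM in WT and 33.9, 33.9 and 31.7 CPM in KO. KO replicates 1 and 2 were above all WT samples and KO replicate 3 below them, and the log2 fold change was 0.04 (SE 0.05, adjusted p = 0.776 by edgeR). Its interval, a fall of at most 5.89% to a rise of at most 12.1%, was the narrowest but that of Pdhb. Lipt1, the lipoyltransferase that loads the E2 proteins, measured 4.28, 4.24 and 4.46 CPM in WT and 4.49, 4.18 and 4.22 CPM in KO. The Lipt1 log2 fold change was -0.01 (SE 0.12, adjusted p = 0.985 by edgeR), from 140 to 224.98 counts per library. Lias lies on chromosome 5 from 65391497 to 65410693 and Lipt1 on chromosome 1 from 37871738 to 37876228, both on the plus strand. Mean Lias mRNA was 5.76 times mean Lipt1 mRNA in TPM.

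Ratios between subunits within a sample do not depend on library scaling, and 4 of them were compared. In TPM they do depend on the gene length used for each library, which varied for Pdhx and Bckdk. Dlat over Pdha1 was 0.208, 0.149 and 0.151 in WT and 0.163, 0.158 and 0.158 in KO, in TPM. Pdhx over Dlat was 0.912, 0.872 and 0.765 in WT and 0.737, 0.808 and 0.828 in KO. Bckdhb over Bckdha was 0.176, 0.112 and 0.133 in WT and 0.162, 0.125 and 0.112 in KO. For each of these the groups overlapped, and the first ratio was set apart in WT by replicate 1 alone. The kinase ratio, Bckdk over Bckdha, was 1.78, 1.11 and 1.34 in WT and 1.61, 1.45 and 1.42 in KO, all above 1. Two-sided exact permutation tests on the log2 ratios gave p of 1.0, 0.4, 0.8 and 0.7 in this order, and 1.0 for each after Benjamini-Hochberg adjustment over the 4, in a design whose smallest p is 0.1. Without WT replicate 1 the log2 differences (KO minus WT) of Dlat over Pdha1 and of Bckdhb over Bckdha turned from -0.06 to 0.09 and from -0.07 to 0.10. With CPM in place of TPM, the log2 difference of Pdhx over Dlat was -0.04 and not -0.10. That of Bckdk over Bckdha was 0.08 and not 0.11.

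The scale mattered for Dbt and Pdhx. The ratio of count to TPM, which reflects the gene length used for a library, was constant over the 6 samples for Pdha1, Pdhb and Dlat but ranged 1.29-fold for Dbt and 1.26-fold for Pdhx, more than for 96.2% and 95.2% of 10562 genes. In TPM, Dbt stood at 14.7, 18.7 and 15.4 in WT and 13.9, 14.2 and 13.8 in KO, so the groups did not overlap, whereas in CPM they did. Relative to the average for Dbt, the log2 count per TPM was 0.026, -0.266 and -0.004 in WT and 0.038, 0.103 and 0.103 in KO. WT replicate 2 lay farthest from 0, but every KO sample was above every WT sample. This pattern was not tested. The share of all tested genes with separate groups was counted in CPM only, where it was 22.8%. It is not known for TPM or for count per TPM. The Dbt log2 difference was -0.21 in TPM (95% interval -0.44 to 0.02, adjusted p = 0.383 by limma with a pseudocount of 0.1) and -0.05 in counts. Pdhx in TPM was 25.3, 20.8 and 19.0 in WT and 17.6, 20.8 and 21.2 in KO, with a log2 difference of -0.12 (adjusted p = 0.691 by limma). GENCODE M21 lists 2 coding transcripts for Dbt, of 446 and 3301 bases, and 3 for Pdhx, of 655 to 2506 bases. It lists 1 each for Pdha1, Pdhb and Dlat. Bckdha has 2 and Bckdhb and Lias have 3 each, yet their ratios ranged only 1.01-fold, 1.01-fold and 1.05-fold. Bckdk with 6 and Lipt1 with 4 ranged 1.12-fold and 1.14-fold. Transcript use was not analysed here.

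**Figure D4:**
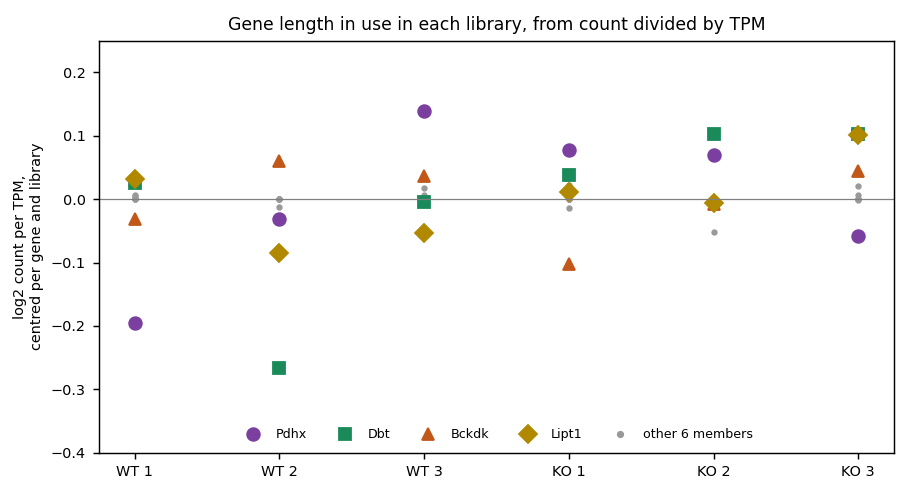
Log2 ratio of count to TPM (y axis, centred on each gene's mean and on each library's median) in the 6 samples (x axis) for the 10 genes. Dbt in WT replicate 2 (-0.27) and Pdhx in WT replicate 1 (-0.20) lie farthest from 0, followed in range by Lipt1 and Bckdk; the grey points are the other 6 genes, whose range over the samples is at most 0.07 (Lias).

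Exons of 4 of the genes overlap another gene on the opposite strand, and the sources used here do not say whether counting used strand. Bckdha shares 1171 of 1899 exonic bases with B3gnt8, Pdha1 shares 603 of 3734 with Map3k15, Lipt1 shares 262 of 2051 with Mitd1, and Lias shares 43 of 4570 with Gm43311. B3gnt8 was listed at 2.36 to 4.07 CPM and Map3k15 at 1.83 to 2.67 CPM, far below Bckdha and Pdha1, whereas Mitd1 at 17.8 to 19.9 CPM was above Lipt1. How the overlaps affect the levels was not tested. Counts of Pdha1, Bckdha, Bckdhb, Dbt and Bckdk had decimals in every library, and those of Pdhb, Dlat and Lias were whole in every library.

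The genes around these enzymes were followed in 5 lists of 66 genes, none of which is among the 10. In the list of pyruvate entry and control of pyruvate dehydrogenase, 0 of 12 tested genes rose and 0 fell (edgeR adjusted p under 0.05), with a median log2 fold change of 0.02, and 3 had an unadjusted p under 0.05 (Pdk2, Pdp1 and Pcx). DESeq2 called 1, Pcx. Over all tested genes edgeR called 0.674%, 15.1% had an unadjusted p under 0.05, and DESeq2 called 3.84% of those it tested. In lists this short, 0 calls by edgeR is near that share. Pcx, pyruvate carboxylase, which sends pyruvate to oxaloacetate in place of acetyl-CoA, measured 16.3, 19.5 and 18.2 CPM in WT and 9.14, 14.1 and 12.7 CPM in KO. Each KO sample of Pcx was below each WT sample, as in 10.9% of all tested genes. KO replicate 1, the sample with the highest neutrophil and monocyte marker sums, was the lowest. The part of these markers in the result was not tested. The Pcx log2 fold change was -0.59 with an SE of 0.16 (edgeR adjusted p = 0.159, DESeq2 adjusted p = 0.0158). Pdp1, a phosphatase that reactivates pyruvate dehydrogenase, measured 13.5, 12.7 and 12.9 CPM in WT and 15.5, 15.1 and 15.1 CPM in KO. Each KO sample of Pdp1 was above each WT sample, as in 11.9% of all tested genes, but at a log2 fold change of 0.23, with an SE of 0.07, it missed the threshold (edgeR adjusted p = 0.197).

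Pdk1, one of the kinases that inactivate pyruvate dehydrogenase, was singled out after its values were seen. It measured 32.0, 21.2 and 20.3 CPM in WT and 22.3, 54.7 and 56.1 CPM in KO. KO replicates 2 and 3 were above all WT samples, KO replicate 1 lay inside the WT range, and at a log2 fold change of 0.86, with an SE of 0.38, it missed the threshold (edgeR adjusted p = 0.367). Without replicate 1 of both groups it was 1.42 (adjusted p = 2.45e-05 by edgeR), and over all alternative settings the adjusted p ran from 2.45e-05 to 0.619. KO replicates 2 and 3 were very close to each other over all genes, with a biological coefficient of variation of 2.97%, where the remaining same-genotype pairs had 7.12 to 14.8%. With KO replicates 2 and 3 summed, the Pdk1 log2 fold change was 0.67 (edgeR adjusted p = 0.582). Pdk3 and Pdk2 did not pass (log2 fold change -0.10 and 0.37, adjusted p = 0.608 and 0.309 by edgeR), and Pdk4 was too low to be tested, at 0.06 to 0.14 CPM.

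**Figure D5:**
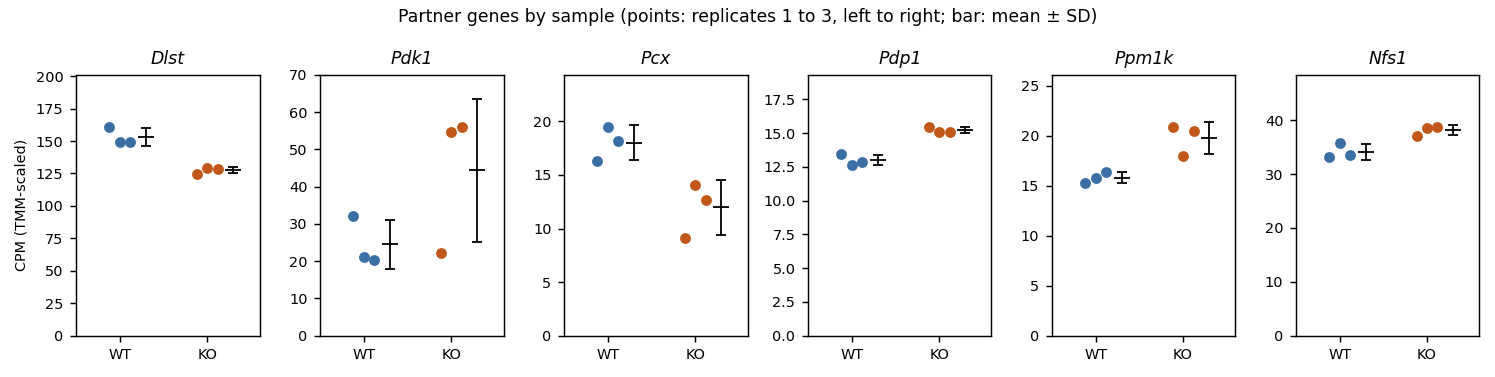
CPM (y axis, from 0) of the targeted gene Dlst and 5 partner genes in the 3 WT (blue) and 3 KO (orange) samples, replicates 1 to 3 from left to right, with mean ± SD. Groups do not overlap for Dlst, Pcx, Pdp1, Ppm1k and Nfs1, whereas Pdk1 in KO replicate 1 (22.3 CPM) lies among the WT samples. Of all tested genes, 22.8% have groups that do not overlap. Pcx, Pdp1, Ppm1k and Nfs1 were named for their small p in these same data, so their separation is no added evidence.

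Branched-chain amino acid uptake and breakdown had 0 of 23 tested genes called in either direction, a median log2 fold change of -0.04 and 1 gene, Ppm1k, at an unadjusted p under 0.05. DESeq2 also called 0. The shares over all tested genes were 0.674% called by edgeR, 15.1% at an unadjusted p under 0.05 and 3.84% called by DESeq2. Ppm1k, the phosphatase that opposes Bckdk on the branched-chain complex, measured 15.3, 15.7 and 16.4 CPM in WT and 20.9, 18.0 and 20.5 CPM in KO. Each KO sample of Ppm1k was above each WT sample, as in 11.9% of all tested genes. The Ppm1k log2 fold change was 0.32 with an SE of 0.08 (edgeR adjusted p = 0.139). For Bcat1, the cytosolic transaminase of the first step, the groups overlapped and the log2 fold change was -0.17 (SE 0.08, edgeR adjusted p = 0.353), or -0.10 without KO replicate 1.

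The 3 lists nearest to lipoylation also held no called gene by edgeR, where 0.674% of all tested genes were called. An unadjusted p under 0.05 was found for 15.1% of all tested genes, and DESeq2 called 3.84%. For mitochondrial fatty acid synthesis, which makes the octanoyl precursor of lipoate, and for lipoate transfer, 0 of 10 passed, 0 had an unadjusted p under 0.05, the median log2 fold change was -0.02, and DESeq2 called 0. Within it Oxsm, a ketoacyl synthase, stood at 0.15 (SE 0.07) and Hsd17b8 at 0.20 (SE 0.09), and neither passed (edgeR adjusted p = 0.353 and 0.344). Hsd17b8 stood at 0.12 without KO replicate 1, the sample with the highest neutrophil and monocyte marker sums, and their part in the result was not tested. For the supply of iron-sulphur clusters to Lias, 0 of 14 passed, 1 had an unadjusted p under 0.05 (Nfs1), the median was -0.03 and DESeq2 called 0. Nfs1, the cysteine desulphurase that supplies the sulphur, measured 33.1, 35.8 and 33.5 CPM in WT and 37.1, 38.6 and 38.8 CPM in KO. Its log2 fold change was 0.16 (SE 0.06, adjusted p = 0.25 by edgeR). The Nfs1 groups did not overlap, KO being higher, as in 11.9% of all tested genes. Nfu1, which hands clusters to Lias, stood at 0.09 (SE 0.06, edgeR adjusted p = 0.552), or 0.06 without replicate 1 of both groups.

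Among the other enzymes with a lipoyl arm or their partners, 0 of 5 tested genes passed and 1, Dlst itself, had an unadjusted p under 0.05, which DESeq2 called (adjusted p = 0.00182). Over all tested genes 0.674% passed by edgeR, 15.1% had an unadjusted p under 0.05 and DESeq2 called 3.84%. The list's median of -0.26 is the value of Dlst. Dhtkd1, the E1 of 2-oxoadipate dehydrogenase, had the next smallest p and was at a low level, with 0.298 to 0.305 CPM in WT and 0.129 to 0.24 CPM in KO. Its log2 fold change was -0.63 (edgeR adjusted p = 0.471), or -0.41 without KO replicate 3. For Dld, the E3 enzyme shared by these complexes, the log2 fold change was -0.00 (SE 0.07, edgeR adjusted p = 0.984).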

How the data were processed

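Bulk mRNA of 6 sorted iTreg samples, 3 WT and 3 KO, was analysed. Per the submitters' processing notes, reads were checked with FastQC and aligned with HISAT2; the sources used here do not give versions, genome build, annotation or counting program. Per the file headers, the authors deposited estimated counts per gene for each sample. The authors also deposited TPM, that is, counts relative to gene length and to the sum over genes. Counts were rounded to whole numbers, filtered with filterByExpr at its defaults and scaled by TMM (factors 0.988 to 1.01). The test was edgeR's (4.0.16) two-sided quasi-likelihood test, robust, with a genotype term alone, Benjamini-Hochberg adjusted over 12768 genes, with 0.05 as the threshold. CPM are TMM-scaled; log2 fold changes are KO minus WT. Alternatives used RLE scaling, no filter, a minimum count of 50, DESeq2 1.42.0, limma 3.58.1 on log2(TPM + 1) and log2(TPM + 0.1) for genes of at least 1 TPM in 3 samples, a replicate block, and samples left out or summed. The scripts were tested on simulated data. Positions come from GENCODE M21 (GRCm38), which need not be the authors' annotation and matched 21806 of 21899 identifiers; promoters come from RefSeq (GRCm38.p6). The count-to-TPM check used genes with at least 50 counts in every library. Erythroid markers summed to 0.603 to 1.11 CPM in WT and 0.18 to 0.459 CPM in KO, and B cell markers to 119 to 292 CPM and 159 to 195 CPM. The members and lists were chosen with earlier results of these data known. Named genes were the 10 members, Dlst, in each list the genes past the threshold or else the 2 with the smallest p, the 3 genes nearest to Dlat, and called genes within 2 Mb of a member; Pdk1, Pdk2, Pdk3, Pdk4 and Dld were chosen after their values were seen. R 4.3.3, Python 3.11.15, pandas 2.3.3 and scipy 1.17.1 were used.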

Additional observations from a re-analysis of the deposited data

How the results depend on the processing

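Under all 15 alternatives 0 of the 10 genes passed in either direction, with adjusted p no lower than 0.262 and log2 fold changes no larger than 0.29 in size. Pdhb, Dbt and Lias kept their sign throughout and the other 7 did not. Without WT replicate 1 the log2 fold change was -0.05 for Pdha1 (-0.047) and 0.04 for Dlat (0.044). Without KO replicate 1 it was 0.02 for Dlat (0.023), 0.01 for Pdhx (0.008) and -0.02 for Bckdk (-0.016), and without replicate 1 of both groups 0.08 for Dlat (0.083) and 0.03 for Pdhx (0.035). Without WT replicate 2 it was 0.02 for Bckdha (0.017) and -0.04 for Bckdk (-0.042), and without WT replicate 3 -0.02 for Bckdk (-0.023) and 0.01 for Lipt1 (0.014). Without KO replicate 3 it was 0.007 for Bckdhb and 0.006 for Lipt1, without KO replicate 2 0.011 for Lipt1, with KO replicates 2 and 3 summed 0.006 for Lipt1, and with DESeq2 -0.0 for Bckdk. With 1 sample left out the log2 fold change reached 0.097 for Pdha1, -0.115 for Pdhx, -0.167 for Bckdha, -0.29 for Bckdhb and 0.07 for Bckdk at the other end of its range. The log2 difference of the ratio Dlat over Pdha1 ran from -0.146 to 0.092 with 1 sample left out, that of Bckdhb over Bckdha from -0.223 to 0.105 (0.044 without KO replicate 3) and that of Bckdk over Bckdha from -0.05 to 0.294.

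In the 5 lists DESeq2 called 2 genes lower (Dlst and Pcx), and without replicate 1 of both groups 1 was called higher (Pdk1) and 2 lower (Dlst and Pcx). Over all genes 58 were called higher and 28 lower, against 366 and 161 with DESeq2, 92 and 41 with no filter, 311 and 227 without replicate 1 of both groups, 6 and 2 with KO replicates 2 and 3 summed, and 3 to 56 and 1 to 40 with 1 sample left out. With a replicate block 134 were higher and 43 lower, and the 10 genes again held 0 calls. The labels do not say that the numbers pair the samples, so they were not taken to do so. Same-numbered samples deviated together weakly, with correlations over genes of 0.182, 0.0722 and 0.081. Differently numbered pairs ran from -0.144 to 0.112. These values cannot settle whether the samples are paired. WT replicate 2 correlated more with KO replicate 3 (0.112) than with its own number. The cause of these shifts was not tested. Bckdhb and Lipt1 rest on the fewest counts and have the widest intervals.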
